A study of Homo sapiens with 9 samples.

Results

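RNA-seq of H1299 cells, a human non-small cell lung cancer line, was examined for 8 of the 60966 genes in the transcript tables: the 5 RecQ helicases BLM, WRN, RECQL, RECQL4 and RECQL5 and the 3 partners of BLM in the dissolvasome, TOP3A, RMI1 and RMI2. The genes were picked by name, and every table row that carried one of the 8 gene names was kept, which gave 90 of 244443 transcripts. Cells of the first group received Scramble siRNA as the control, and cells of the other groups received Si-FIBP#1 or Si-FIBP#2, a pair of siRNAs against FIBP, the gene of a protein that binds acidic fibroblast growth factor. Each group had 3 samples, harvested 48 h after transfection. The sample labels name no other treatment, all samples come from 1 line, and a transient knockdown leaves some FIBP RNA in the cells.

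RecQ helicases unwind DNA with a 3′ to 5′ polarity and act on the branched structures that arise when replication forks stall or when homologous recombination joins chromatids. BLM works with the type IA topoisomerase TOP3A and the OB-fold proteins RMI1 and RMI2 to take apart double Holliday junctions without crossing over, the alternative to cutting them with nucleases such as MUS81-EME1 or GEN1. Inherited loss of BLM, WRN or RECQL4 causes Bloom, Werner or Rothmund-Thomson syndrome, all disorders of genome stability.

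The values were FPKM, fragment numbers scaled to the length of the transcript and the size of the library, and a gene's level here is the sum over its transcripts. Estimated depth ran from 20000000 to 23850000 fragments per sample, and no sample stood apart in depth or in the share of assembled transcripts (5.45% to 5.84% of FPKM). FIBP itself checked the labels: its level was 77.7 to 88.4 FPKM in the 3 Scramble samples, 4.30 to 7.77 FPKM after Si-FIBP#1 and 5.92 to 8.21 FPKM after Si-FIBP#2, so neither siRNA group overlapped Scramble (limma log2 differences of -3.50 and -3.37, adjusted p = 9.40e-07 and 1.42e-06). These sums left 7.96% and 8.66% of the Scramble level of FIBP, whereas estimated fragments as a share of the library, a scale chosen after seeing the data that gives short transcripts no extra weight, left 19.7% and 21.7%. Of 10 markers of blood, endothelial, normal lung and liver cells, 3 (CD3E, HBB and SCGB1A1) were listed at 0 in every sample and 9 stayed under 1 FPKM; their summed level was 0.32 to 0.54 FPKM in Scramble, 0.57 to 1.06 FPKM after Si-FIBP#1 and 0.65 to 1.62 FPKM after Si-FIBP#2. In bulk RNA of this kind, fewer cells that express a gene and less of its RNA per cell cannot be told apart.

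On GRCh38 (GENCODE release 29), BLM lies at chr15:90717327-90816165 on the plus strand, TOP3A at chr17:18271428-18315007 on the minus strand, RMI1 at chr9:83980711-84004074 on the plus strand and RMI2 at chr16:11249619-11381662 on the plus strand. Of the other RecQ genes, RECQL lies at chr12:21468911-21501669 on the minus strand and RECQL5 at chr17:75626845-75667189 on the minus strand. The build behind the FPKM tables is not given in the sources used here, and no coordinate was taken from them. Exons of RECQL share 1566 bases (41.5% of its exon bases) with PYROXD1 on the opposite strand, and exons of RECQL5 share 1520 bases (17.3%) with SMIM5 and 74 bases (0.844%) with SAP30BP, both on the opposite strand. Exons of RECQL4 share 198 bases (4.67%) with the antisense gene AC084125.4. The sources do not state whether counting used strand, so fragments in those stretches could belong to either gene. PYROXD1 was at 8.25, 5.83 and 6.91 FPKM in Scramble, Si-FIBP#1 and Si-FIBP#2, SMIM5 at 0.22, 0.29 and 0.17 FPKM, and SAP30BP at 59.1, 62.8 and 68.0 FPKM, above RECQL5 in each group. AC084125.4 was at 0.43, 0.39 and 1.55 FPKM in the same order of groups. The part of these genes in the values of RECQL, RECQL5 and RECQL4 was not tested.

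Promoter windows of 300 bases, 250 before and 50 after the annotated start, were read from RefSeq (GRCh38.p14) for 5 of the 8 genes. These were BLM, RECQL, RECQL5, RMI1 and TOP3A, and no window of WRN, RECQL4 or RMI2 was searched. Shown are the windows of BLM (chr15:90717096-90717395, plus strand) and RECQL (chr12:21501586-21501885, minus strand), which both went down after FIBP depletion, and of RECQL5 (chr17:75667105-75667404, minus strand), the member that went up. They run 5′ to 3′ on the gene's strand, with each CCAAT box (CCAAT on either strand) in capitals.
BLM: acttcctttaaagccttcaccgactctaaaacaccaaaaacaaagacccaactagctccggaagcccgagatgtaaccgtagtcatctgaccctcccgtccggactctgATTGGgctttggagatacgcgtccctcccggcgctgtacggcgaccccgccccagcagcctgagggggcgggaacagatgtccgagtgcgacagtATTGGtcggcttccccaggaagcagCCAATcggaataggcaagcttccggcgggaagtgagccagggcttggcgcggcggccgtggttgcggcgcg
RECQL: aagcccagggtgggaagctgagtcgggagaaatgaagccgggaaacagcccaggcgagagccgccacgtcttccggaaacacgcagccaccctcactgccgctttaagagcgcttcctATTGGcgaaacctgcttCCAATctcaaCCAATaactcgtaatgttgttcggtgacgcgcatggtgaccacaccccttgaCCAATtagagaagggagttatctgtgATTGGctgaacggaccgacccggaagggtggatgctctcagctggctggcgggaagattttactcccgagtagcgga
RECQL5: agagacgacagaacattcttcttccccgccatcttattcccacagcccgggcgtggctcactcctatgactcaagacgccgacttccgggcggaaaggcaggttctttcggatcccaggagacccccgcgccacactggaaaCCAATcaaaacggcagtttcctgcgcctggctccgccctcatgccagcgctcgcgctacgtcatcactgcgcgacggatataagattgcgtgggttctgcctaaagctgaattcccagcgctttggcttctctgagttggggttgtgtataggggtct

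The BLM window held 3 CCAAT boxes, whose first bases lay at -141, -46 and -21 from the start, the RECQL window held 5 and the RECQL5 window held 1, at -108. A CCAAT box was present in 34.6% of the 35116 promoter windows, at least 3 were present in 3.26% and at least 5 in 0.359%. One of the windows of RMI1 held 2 CCAAT boxes, and the TOP3A window held none. The E2F-type motif TTTNNCGC matched 1 time, in the other RMI1 window (first base at -32), and was present in 6.89% of all windows. Neither form of the CHR motif (TTTGAA or TTCGAA, 16.4% of all windows), nor the STAT-type motif TTCNNNGAA (7.66%), nor its stricter form TTCCNGGAA (1.15%), which the STAT-type motif includes, matched in any window of these 5 genes. Both strands were searched, a match is only a match of letters, and the lack of one says only that those letters are not in these 300 bases.

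To ask which of the 8 genes changed after FIBP depletion, each siRNA was compared with Scramble in a limma model fitted to log2(FPKM + 1) of 14985 genes, with Benjamini-Hochberg adjustment over all of them. All 8 members passed the filter on low values and were above 1 FPKM in every sample. With Si-FIBP#1, 6 of the 8 were lower at an adjusted p under 0.05 (BLM, RECQL4, RMI1, RMI2, RECQL and WRN), where 19.9% of all genes were lower, and 1, RECQL5, was higher, where 27.8% of all genes were higher. With Si-FIBP#2, 5 were lower (the same set without WRN), against 17.7% of all genes, and RECQL5 was again the 1 higher, against 31.1%. When a change of more than 2-fold was also required, BLM and RECQL4 were lower after Si-FIBP#1 (3.11% of all genes) and BLM after Si-FIBP#2 (2.13%). No member was more than 2-fold higher with either siRNA, with or without the limma threshold, against 2.55% and 2.92% of all genes, and 1 member, RECQL5, was higher at an unadjusted p under 0.05 in each comparison. The median log2 difference over the 8 members was -0.74 after Si-FIBP#1 and -0.65 after Si-FIBP#2, beside medians over all genes of 0.07 and 0.11. Scaling by median ratios, which brought the medians of all genes to 0.005 and 0.006, gave -0.82 and -0.77 for the members. The siRNA comparisons share their Scramble samples, so one does not stand as a repeat of the other.

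**Figure D1:**
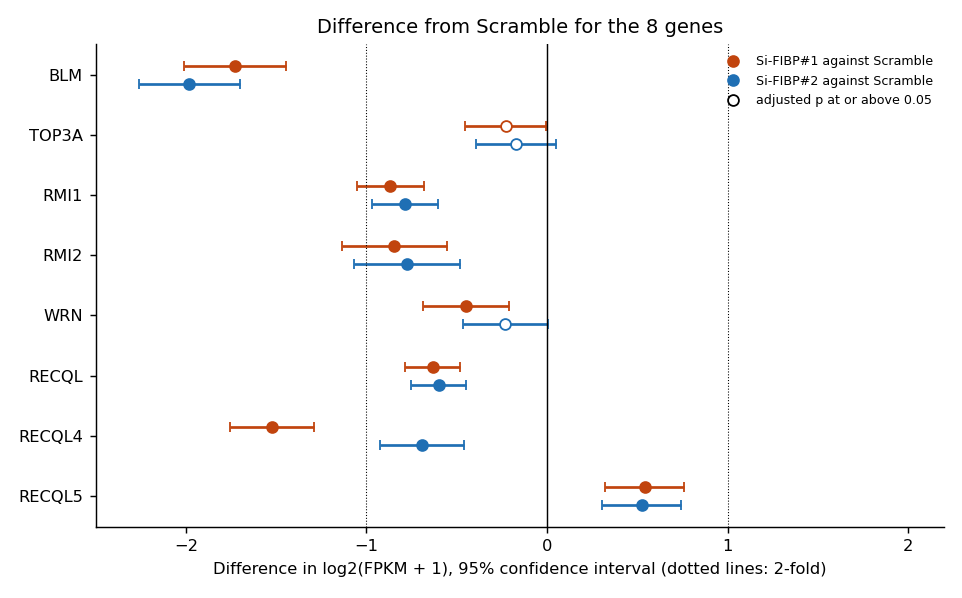
Each point is the log2 difference from Scramble of one gene, estimated on log2(FPKM + 1) from 3 samples per group, with its 95% confidence interval; filled points have an adjusted p under 0.05, and dotted lines mark 2-fold. BLM lies past the lower 2-fold line with both siRNAs, RECQL4 after Si-FIBP#1, and RECQL5 is the single gene to the right of 0.

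In all 6 FIBP-depleted samples, BLM, RECQL, RECQL4, RMI1 and RMI2 were below all 3 Scramble samples, a pattern seen in 16.5% of all genes, and RECQL5 was above all 3, which held for 26.3% of all genes. WRN and TOP3A overlapped between groups. With the mean of both siRNA groups set against Scramble, BLM and RECQL4 were more than 2-fold lower at an adjusted p under 0.05, against 2.45% of all genes.

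**Figure D2:**
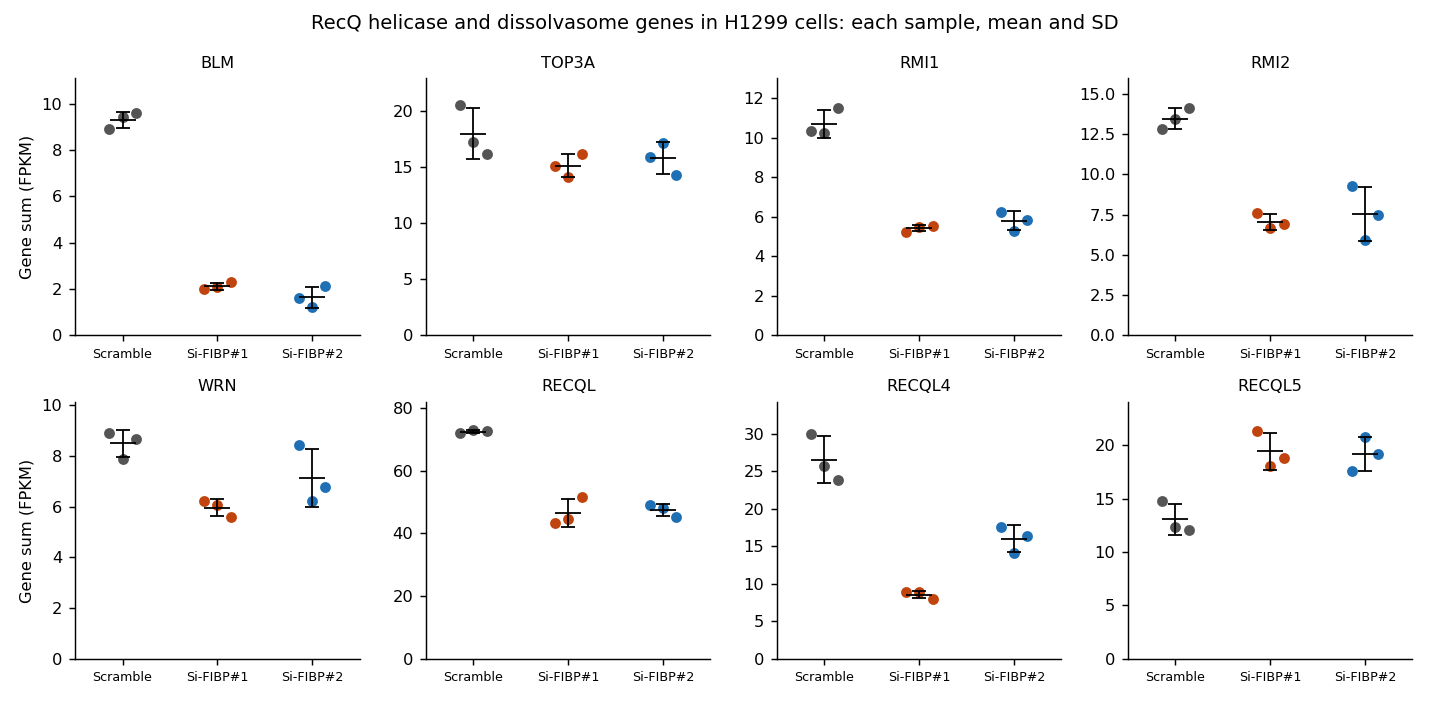
Gene sums in FPKM for each of the 9 samples, with the mean and SD of each group of 3; every axis starts at 0 and has its own scale. Depleted samples lie below Scramble for BLM (1.22 to 2.28 against 8.93 to 9.60 FPKM), RECQL, RECQL4, RMI1 and RMI2 and above it for RECQL5.

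BLM, the helicase of the dissolvasome, had the largest fall of the 8 genes with each siRNA. Its level was 8.93, 9.42 and 9.60 FPKM in the Scramble samples, 1.98, 2.09 and 2.28 FPKM after Si-FIBP#1, and 1.59, 1.22 and 2.11 FPKM after Si-FIBP#2. The samples of each FIBP siRNA lay far below Scramble and overlapped each other. The means of 9.32 ± 0.347, 2.12 ± 0.152 and 1.64 ± 0.447 FPKM (SD, n = 3) correspond to a level 4.40-fold lower after Si-FIBP#1 and 5.68-fold lower after Si-FIBP#2. On the log2(FPKM + 1) scale, which understates changes of low genes, the differences were -1.73 (95% confidence interval -2.01 to -1.45, limma adjusted p = 5.79e-06) and -1.98 (-2.26 to -1.70, limma adjusted p = 3.28e-06). Ordered by this difference from the lowest, BLM was gene 44 of 14985 after Si-FIBP#1 and gene 17 of 14985 after Si-FIBP#2. BLM is labelled in a heatmap picture of the study among the recombination genes it took up from this experiment, so its direction here is not independent evidence. An estimated 703 to 855 fragments per sample supported the Scramble values, 172 to 206 the Si-FIBP#1 values and 131 to 159 the Si-FIBP#2 values.

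The main BLM transcript fell with both siRNAs. The 5240-nt protein-coding transcript ENST00000355112 carried 65.7% of the BLM sum in Scramble and stood at 5.88, 6.58 and 5.90 FPKM there, at 1.53, 1.40 and 1.54 FPKM after Si-FIBP#1, and at 1.29, 1.13 and 1.15 FPKM after Si-FIBP#2. Its share of the gene sum was 70.4% and 72.6% in the depleted groups. The 2023-nt non-coding transcript ENST00000560136 was at 1.27 to 1.82 FPKM in Scramble and was listed at 0 in 4 of the 6 depleted samples; it passed the filter on low values only through Scramble, so its values are a description.

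TOP3A, the topoisomerase that passes strands in the same complex, did not pass the test as a gene sum. It was at 20.51, 17.22 and 16.21 FPKM in Scramble, 15.13, 14.15 and 16.13 FPKM after Si-FIBP#1, and 15.92, 17.16 and 14.32 FPKM after Si-FIBP#2. Scramble sample 1 was the highest, and Scramble sample 3 lay within the range of the depleted samples. The log2 differences were -0.23 (95% confidence interval -0.45 to -0.01, limma adjusted p = 0.0831) and -0.17 (-0.40 to 0.05, limma adjusted p = 0.177). By transcript the picture differed. The 6596-nt ENST00000321105, 64.9% of the sum in Scramble, fell from 11.7 ± 0.711 FPKM to 8.65 ± 0.485 FPKM after Si-FIBP#1 and 8.50 ± 0.959 FPKM after Si-FIBP#2 (SD, n = 3), at limma adjusted p = 0.0224 and 0.0182 over all transcripts. ENST00000583804, a retained-intron transcript, averaged 0.48, 0.727 and 1.35 FPKM in Scramble, Si-FIBP#1 and Si-FIBP#2. It reached 1 FPKM only in the Si-FIBP#2 samples and so passed the filter through the group where it was high, which leaves these values as a description. Summing each gene's estimated fragments in place of FPKM put TOP3A at 79.6% and 79.5% of Scramble and past the test (limma adjusted p = 0.000348 and 0.000317). Median ratio scaling also took it past the test, at -0.31 and -0.29 on the log2 scale.

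RMI1 and RMI2, the OB-fold subunits that stabilise the complex, both fell to about the same extent. RMI1 was at 10.34, 10.26 and 11.51 FPKM in Scramble, 5.23, 5.48 and 5.51 FPKM after Si-FIBP#1, and 6.24, 5.29 and 5.84 FPKM after Si-FIBP#2. RMI2 was at 12.81, 13.47 and 14.11 FPKM in Scramble, 7.63, 6.64 and 6.90 FPKM after Si-FIBP#1, and 9.30, 5.91 and 7.45 FPKM after Si-FIBP#2. For both genes the depleted samples lay below every Scramble sample, and Si-FIBP#2 sample 1 was the highest of the depleted samples. The group means were 50.5% and 54.1% of Scramble for RMI1 and 52.4% and 56.1% for RMI2. Log2 differences were -0.87 ± 0.082 and -0.79 ± 0.082 (SE) for RMI1 and -0.85 ± 0.13 and -0.78 ± 0.13 (SE) for RMI2, with limma adjusted p from 2.98e-05 to 0.000946. The main transcripts carried these falls: ENST00000445877 of RMI1 (79.4% of the sum in Scramble) and ENST00000312499 of RMI2 (97.4%) were both lower with both siRNAs. ENST00000325875, the other RMI1 transcript, was at 2.21, 0.873 and 1.19 FPKM and did not pass the test with either siRNA.

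Relative to TOP3A in the same sample, the partners shifted. BLM per TOP3A was 0.435 to 0.592 in Scramble, 0.131 to 0.148 after Si-FIBP#1 and 0.071 to 0.147 after Si-FIBP#2. RMI1 per TOP3A was 0.504 to 0.710 in Scramble and 0.308 to 0.408 over the depleted samples. RMI2 per TOP3A was 0.625 to 0.870 in Scramble, 0.428 to 0.504 after Si-FIBP#1 and 0.344 to 0.584 after Si-FIBP#2. In each case the depleted samples lay below all Scramble samples. The ratios are given as values, with no test.

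**Figure D3:**
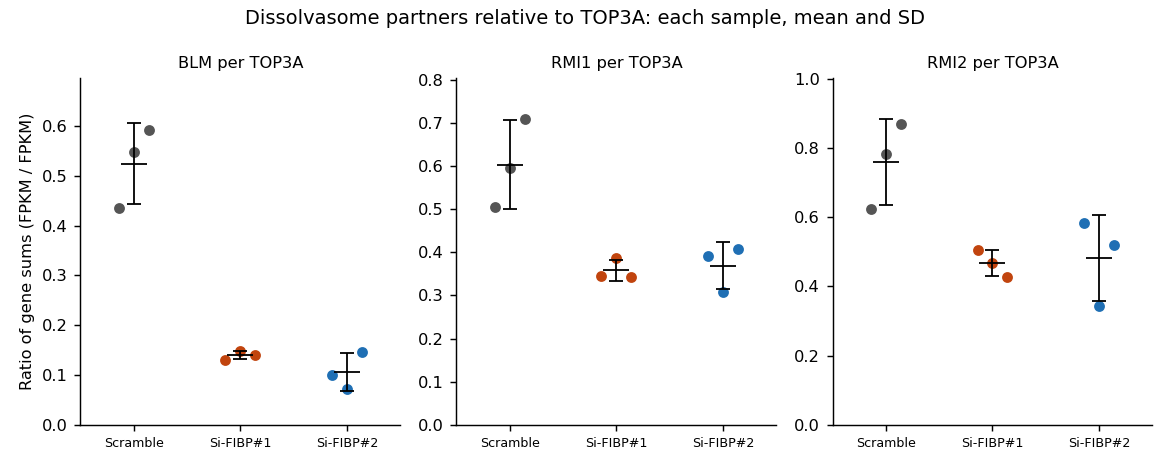
Ratio of the gene sums in FPKM of BLM, RMI1 and RMI2 to that of TOP3A in each of the 9 samples, with the mean and SD of each group of 3. BLM per TOP3A drops from at least 0.435 in Scramble to at most 0.148 in the depleted samples, and the RMI ratios lie lower in every depleted sample too.

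WRN, a helicase that also carries an exonuclease domain, showed the smallest log2 differences of the RecQ genes. Its gene lies on the plus strand of chr8:31033801-31173769 (GRCh38). It was at 8.91, 7.89 and 8.67 FPKM in Scramble, 6.23, 6.06 and 5.58 FPKM after Si-FIBP#1, and 8.41, 6.22 and 6.76 FPKM after Si-FIBP#2. All Si-FIBP#1 samples were below Scramble, whereas Si-FIBP#2 sample 1 lay within the Scramble range. The gene sum fell by 0.45 on the log2 scale after Si-FIBP#1 (limma adjusted p = 0.00648), and differed by -0.23 after Si-FIBP#2 (95% confidence interval -0.47 to 0.01, limma adjusted p = 0.0983). Without Si-FIBP#2 sample 1 the second difference was -0.34 (limma adjusted p = 0.0164). The full-length 7575-nt transcript ENST00000298139 did not differ detectably, at 3.50, 5.00 and 3.99 FPKM in Scramble, 3.96, 3.75 and 4.75 FPKM after Si-FIBP#1, and 3.55, 4.90 and 4.33 FPKM after Si-FIBP#2. Its log2 differences were 0.00 (95% confidence interval -0.34 to 0.35) and 0.03 (-0.32 to 0.37). The 629-nt retained-intron transcript ENST00000520169 went from 2.13 ± 0.288 FPKM in Scramble to 0.64 ± 0.543 FPKM and 1.48 ± 0.814 FPKM (SD, n = 3) without passing the test, on an estimated 16.0, 5.2 and 11.1 fragments per sample. Summed as estimated fragments, WRN was at 85.2% and 89.7% of Scramble, and its log2 difference after Si-FIBP#1 was -0.23, still past the test (limma adjusted p = 0.0283).

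RECQL, also called RECQ1, a helicase that helps reversed replication forks restart, led the family here by summed FPKM. It was at 71.91, 72.81 and 72.49 FPKM in Scramble, 43.18, 44.61 and 51.50 FPKM after Si-FIBP#1, and 49.00, 47.94 and 45.27 FPKM after Si-FIBP#2. The Scramble samples lay within 1 FPKM of each other, and every depleted sample was more than 20 FPKM below them. RECQL fell by 0.63 ± 0.068 after Si-FIBP#1 and by 0.60 ± 0.068 after Si-FIBP#2 (SE, log2 scale; limma adjusted p = 6.27e-05 and 8.92e-05). Of its tested transcripts, only MSTRG.5527.1 had log2 differences above 0, and it did not pass the test. The 3745-nt ENST00000444129 fell from 27.9 ± 2.52 to 19.3 ± 2.37 and 19.7 ± 2.64 FPKM (SD, n = 3), whereas MSTRG.5527.1, a 3689-nt transcript assembled from the reads, was at 7.05 ± 0.355 FPKM in Scramble and at 9.72 ± 0.516 and 9.13 ± 1.76 FPKM in the depleted groups, a difference that did not pass the test (limma adjusted p = 0.0544 and 0.127). MSTRG.5527.1 made up 9.73% of the RECQL sum in Scramble and 20.9% and 19.3% after depletion. The other assembled transcript, MSTRG.5527.2, was at 11.25 ± 2.49 FPKM in Scramble and at 5.66 ± 1.86 and 6.62 ± 1.41 FPKM after depletion (SD, n = 3). It passed the test after Si-FIBP#1 (limma adjusted p = 0.0306) but not after Si-FIBP#2 (limma adjusted p = 0.0857). ENST00000421138, a shorter protein-coding transcript of 2572 nt, fell with both siRNAs as well, from 11.2 ± 1.56 to 5.56 ± 0.607 and 5.81 ± 1.32 FPKM (SD, n = 3).

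RECQL4, a helicase with an N-terminal region that acts in replication initiation, was the one member that passed the test between the siRNAs. Its gene lies on the minus strand of chr8:144511288-144517845 (GRCh38). It was at 30.00, 25.72 and 23.89 FPKM in Scramble, 8.84, 8.86 and 7.96 FPKM after Si-FIBP#1, and 17.61, 14.09 and 16.37 FPKM after Si-FIBP#2. The 3 groups did not overlap, after Si-FIBP#2 between the other groups. RECQL4 fell by 1.52 ± 0.103 after Si-FIBP#1 and by 0.69 ± 0.103 after Si-FIBP#2 (SE, log2 scale; limma adjusted p = 3.79e-06 and 0.000463), which left 32.2% and 60.4% of the Scramble level. Si-FIBP#2 against Si-FIBP#1 gave 0.83 (95% confidence interval 0.60 to 1.06, limma adjusted p = 0.00118). At an adjusted p under 0.05, 15.4% of all genes differed between the siRNAs in either direction, and 0.561% also differed by more than 2-fold. FIBP RNA was at 6.52 ± 1.93 FPKM after Si-FIBP#1 and 7.09 ± 1.15 FPKM after Si-FIBP#2 (SD, n = 3), and the difference did not pass the test (limma adjusted p = 0.686). Of 20 genes of S phase and proliferation, 10 were also higher after Si-FIBP#2 than after Si-FIBP#1 at an adjusted p under 0.05. The share of all genes higher in that direction was not computed, so this count is a description. The part of these genes in the RECQL4 difference was not tested. Among RECQL4 transcripts, the protein-coding ENST00000617875 and ENST00000621189 were lower with both siRNAs. The 781-nt ENST00000301323, annotated as a target of nonsense-mediated decay, carried 34.4% of the sum in Scramble. It fell from 9.14 ± 1.14 to 2.60 ± 0.462 FPKM after Si-FIBP#1 and was at 6.75 ± 2.99 FPKM after Si-FIBP#2 (SD, n = 3), where it did not pass the test. Between the siRNAs, no tested RECQL4 transcript passed the test. The log2 difference was 1.04 for ENST00000301323 (limma adjusted p = 0.0745). For ENST00000617875 and ENST00000621189 it was 0.36 and 0.41 (limma adjusted p = 0.523 and 0.426).

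For the remaining members the interval of the Si-FIBP#2 against Si-FIBP#1 difference included 0. It was -0.53 to 0.03 for BLM, -0.02 to 0.45 for WRN, -0.12 to 0.19 for RECQL, -0.24 to 0.20 for RECQL5, -0.17 to 0.28 for TOP3A, -0.10 to 0.27 for RMI1 and -0.22 to 0.36 for RMI2, so differences within those intervals were not excluded.

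RECQL5, a helicase that associates with RNA polymerase II, moved against the rest of the family. It was at 14.75, 12.34 and 12.11 FPKM in Scramble, 21.37, 18.10 and 18.85 FPKM after Si-FIBP#1, and 17.56, 20.77 and 19.22 FPKM after Si-FIBP#2. All depleted samples were above all Scramble samples, and the siRNA groups overlapped. The means were 149% and 147% of Scramble, and RECQL5 rose by 0.54 ± 0.097 and 0.52 ± 0.097 (SE, log2 scale; limma adjusted p = 0.00143 and 0.00171). The 3669-nt protein-coding ENST00000317905 was at 4.43 ± 0.301, 4.23 ± 0.542 and 5.66 ± 0.336 FPKM (SD, n = 3) in Scramble, Si-FIBP#1 and Si-FIBP#2 and did not pass the test. MSTRG.12264.1, a 4378-nt transcript assembled from the reads, was at 0.69, 0.82 and 1.58 FPKM in Scramble, at 2.39, 3.22 and 2.62 FPKM after Si-FIBP#1 and at 2.29, 2.30 and 2.79 FPKM after Si-FIBP#2. It passed the filter on low values only through the depleted samples, so its values too are a description. The 333-nt ENST00000579265 contributed 20.4%, 27.9% and 16.0% of the sum on an estimated 2.9, 7.7 and 4.0 fragments per sample. Summed as estimated fragments, RECQL5 was at 126.7% and 141.3% of Scramble, with a log2 difference of 0.33 in place of 0.54 for Si-FIBP#1, past the test on both scales.

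Over all 8 genes, 30 of the 90 listed transcripts reached 1 FPKM in at least 3 samples and were tested. With Si-FIBP#1, 14 were lower, against 10.0% of the 47662 transcripts tested, and 1 was higher, against 10.7%. With Si-FIBP#2, 11 were lower, against 8.46%, and 2 were higher, against 10.6%. Of these 30, 4 passed the filter only through Scramble and 3 only through the depleted samples, so that their calls are no support, and every higher call was among the latter. Among the 21 that passed on both sides, 11 were lower after Si-FIBP#1 and 9 after Si-FIBP#2. The share over all transcripts that passed on both sides was not computed, so these counts too are a description. The total called after Si-FIBP#2, 13, was 7 without Scramble replicate 1 and 8 without Scramble replicate 2, Scramble replicate 3 or Si-FIBP#2 replicate 3. StringTie divides fragments among overlapping transcripts by estimation, and 7 of the 90 transcripts were assembled from the reads, so values of single transcripts are less certain than gene sums.

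By summed FPKM in Scramble the order ran from RECQL (72.4) through RECQL4 (26.5), TOP3A (17.98), RMI2 (13.5), RECQL5 (13.1), RMI1 (10.7) and BLM (9.32) to WRN (8.49). Only RMI2 and RECQL5 overlapped among neighbours in this order, and BLM and WRN were separated by 0.02 FPKM at their nearest samples. After depletion RECQL still came highest and BLM lowest, and RECQL5 (19.4 and 19.2 FPKM after Si-FIBP#1 and Si-FIBP#2) lay above TOP3A (15.1 and 15.8 FPKM). The 5 RecQ helicases together summed to 126.8 to 134.5 FPKM in Scramble, 79.7 to 86.2 FPKM after Si-FIBP#1 and 89.7 to 94.2 FPKM after Si-FIBP#2. RECQL made up 50.5% to 59.8% of that sum in every sample, whereas the part of BLM went from 6.6% to 7.6% in Scramble to 1.4% to 2.6% in depleted samples.

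Likeness to the BLM pattern was measured as the root mean square difference over the 9 samples in log2(FPKM + 1), each gene taken relative to its Scramble mean. The nearest genes were FAM83D (0.152), which encodes a spindle protein, UHRF1 (0.172), needed to maintain DNA methylation, CAV1 (0.195), the main protein of caveolae, KIF20A (0.219), a mitotic kinesin, and VIPR1 (0.247), a neuropeptide receptor. FAM83D averaged 45.6, 12.1 and 11.2 FPKM in Scramble, Si-FIBP#1 and Si-FIBP#2, and UHRF1 averaged 66.5, 17.3 and 18.04 FPKM. None of the other members was among these nearest genes. With all 14985 tested genes ordered by their distance from BLM, RECQL4 came nearest of the members at 0.767, in place 383. RMI1 followed in place 524 and RMI2 in place 551. These distances describe 9 samples in 3 groups and carry no test.

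Genes around the dissolvasome were read from lists, in the same limma fit, in which 19.9% of all genes were lower and 27.8% higher after Si-FIBP#1, and 17.7% lower and 31.1% higher after Si-FIBP#2. Of the 7 genes listed under Holliday junction resolvases, 6 were lower after Si-FIBP#1 and 4 after Si-FIBP#2. None was higher (1 at an unadjusted p under 0.05 in each comparison, EME2). The medians were -0.88 and -0.59 on the log2 scale. EME1, the partner of MUS81, fell by 1.57 and 1.47, and it too was picked by the study from these samples. The study also reports EME1 lower after FIBP depletion by real-time PCR and as protein. SLX1B had the lowest value after Si-FIBP#1 (-1.80), but SLX1A and SLX1B are near-identical copies whose fragments could be split between them, and these values are uncertain. Both medians of the list are the values of SLX1A. The lower calls include SLX1A with both siRNAs and SLX1B after Si-FIBP#1. EME2, at 0.46 and 0.49, did not pass the test with either siRNA alone. It was higher with the mean of both siRNA groups set against Scramble (0.47, limma adjusted p = 0.0318). Of 18 partners of BLM and WRN, 14 were lower and 1 higher after Si-FIBP#1, and 13 were lower and 0 higher after Si-FIBP#2, also 0 at an unadjusted p under 0.05 (medians -0.44 and -0.53). The telomere protein TERF2 rose by 0.33 after Si-FIBP#1. PCNA stands in this list and in that of S phase, and FANCM in this list and in that of other helicases.

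Of 19 other helicases of genome maintenance, 8 were lower and 3 higher after Si-FIBP#1 and 6 were lower and 3 higher after Si-FIBP#2, with medians of -0.21 and -0.17; the share that was higher lay below that of all genes (27.8% and 31.1%). PIF1, which unwinds G-quadruplex DNA, fell by 1.52 and 0.91, and FBH1 rose by 0.68 after Si-FIBP#1 and by 0.23 after Si-FIBP#2. The 6 other topoisomerase genes had 2 lower with each siRNA and 2 and 3 higher (medians 0.10 and 0.06). TOP2A, the type II enzyme of dividing cells, fell by 1.51 and 1.31, whereas TOP1 rose by 0.32 and 0.52. Of 20 genes of S phase and proliferation, 19 were lower with both siRNAs, with medians of -1.54 and -1.23. TYMS had the lowest value after Si-FIBP#1 (-2.20) and RRM2 after Si-FIBP#2 (-1.83), and the cyclin gene CCNE1 was the 1 gene that rose, by 1.11 and 0.77. Apart from CCNE1, these proliferation genes were lower than in Scramble with both siRNAs, as were BLM, RECQL4 and the RMI genes. The part of the proliferation genes in the values of the 8 members was not tested.

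**Figure D4:**
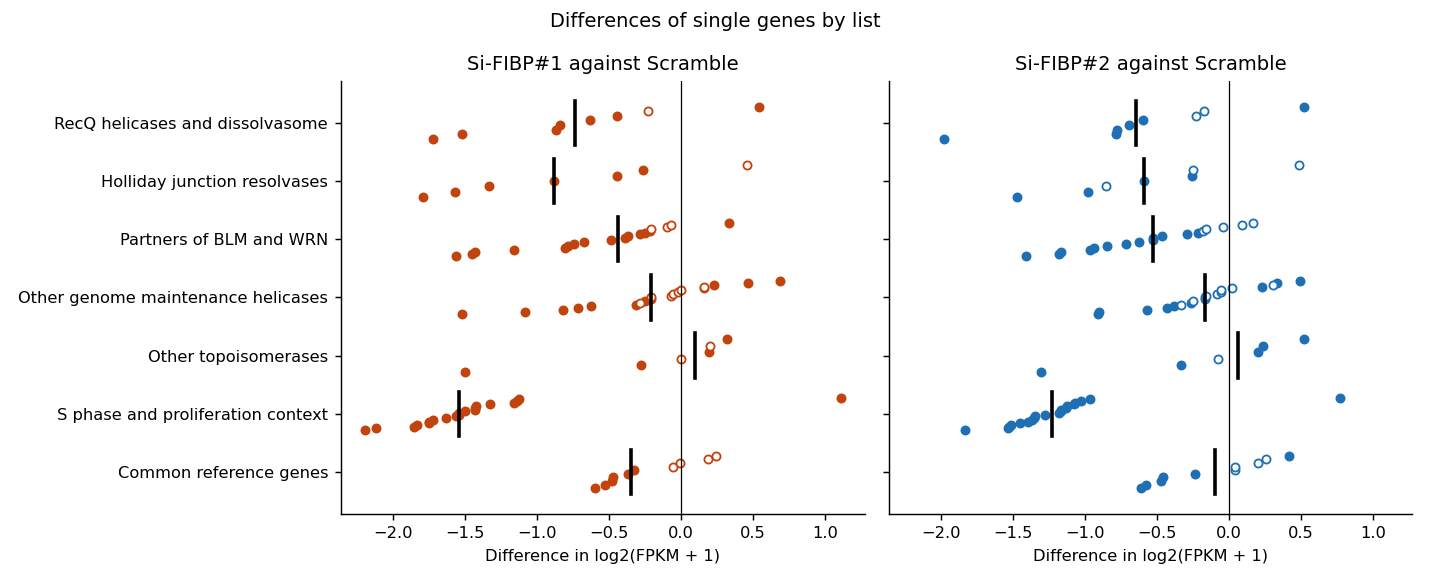
Log2 difference from Scramble on log2(FPKM + 1) for every gene of each list, for Si-FIBP#1 (left) and Si-FIBP#2 (right); filled points have an adjusted p under 0.05 and black bars mark the list medians. The 8 RecQ and dissolvasome genes spread from BLM at the left (-1.73 and -1.98) to RECQL5 at the right (0.54 and 0.52), and the S phase list lies lowest (medians -1.54 and -1.23).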

How the data were processed

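Total RNA of H1299 cells was enriched for poly(A) and made into libraries with an Illumina TruSeq kit, per the labels. The authors' deposited tables hold 1 value per transcript and sample, to 2 decimals, and the tables do not name its unit. It was taken as FPKM because the submitters' processing notes name HISAT2 and StringTie, and because the steps between low values follow a transcript's length less 270 to 300 nt. From these steps depth was estimated at 20000000 to 23850000 fragments per sample. Versions, build and annotation release are not given in the sources used here. Groups came from the sample titles; no batch is labelled. The samples are called independent without saying whether they were separate cultures, so p-values measure the spread between these samples, which may be technical.

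FPKM were summed per gene name and identifier. The 14985 genes, and separately the 47662 transcripts, that reached 1 FPKM in 3 or more of the 9 samples were fitted with limma 3.58.1 in R 4.3.3 on log2(FPKM + 1) with a mean-variance trend, all 9 samples in 1 fit, and p-values were adjusted by Benjamini-Hochberg over all features tested. Calls used an adjusted p under 0.05, alone or with a change of more than 2-fold, the thresholds in the study's methods. The script was tested on simulated data. Named genes were all 8 members, their tested transcripts, FIBP, the 5 genes nearest to BLM, and the lowest and highest gene of each list, some of which are not reported here. Members and lists were chosen with earlier results of these data known. Alternatives were TPM scaling, median ratio scaling, a pseudocount of 0.1, no filter, a filter of 5 FPKM, a fit to the 2 groups of a comparison, Ensembl transcripts only, a replicate block, no trend, each sample left out in turn and, chosen after seeing the data, estimated fragments as a share of the library in place of FPKM. Positions and transcript types came from GENCODE release 29, in which 80 of the 83 Ensembl transcripts of the members were found, and promoters from RefSeq. The tables hold no counts, and no count model was used.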

Additional observations from a re-analysis of the deposited data

Results flagged for a closer look

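RECQL4 stood out because its gene sum differed between the FIBP siRNAs by a test of the difference itself. Si-FIBP#2 against Si-FIBP#1 gave 0.829 on the log2(FPKM + 1) scale, with all 3 Si-FIBP#2 samples (14.09 to 17.61 FPKM) above all 3 Si-FIBP#1 samples (7.96 to 8.86 FPKM) and a limma adjusted p of 0.00118. Over the 19 alternatives the difference ranged from 0.73 to 0.91, with limma adjusted p from 2.39e-05 to 0.00727. Taken singly, no tested RECQL4 transcript passed the test in that comparison. None of the other 7 members passed the test in that comparison, and 15.4% of all genes tested passed it, so 1 of 8 members is no more than the share of all genes.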

How the results depend on the processing

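Of 600 alternative values for the log2 differences of the 8 members, 580 kept their direction and their side of the threshold, 10 passed it where the reported value did not, none was lost and 10 changed sign. The 10 newly past the threshold were TOP3A (median ratio scaling, estimated fragments and, for both siRNAs together, without Scramble replicate 3 at -0.27 or without Si-FIBP#2 replicate 2 at -0.23) and WRN with Si-FIBP#2 (median ratio scaling and without Si-FIBP#2 replicate 1). All sign changes concerned Si-FIBP#2 against Si-FIBP#1, where no such value passed the test: RECQL was -0.009 with median ratio scaling, RECQL5 was 0.025 with TPM scaling, 0.027 with Ensembl transcripts only and 0.16 as estimated fragments, and TOP3A was -0.002 as estimated fragments. With each sample left out in turn, that difference ran from -0.016 to 0.108 for RECQL, from -0.074 to 0.049 for RECQL5, from -0.001 to 0.12 for TOP3A, from -0.074 to 0.213 for RMI2 and from -0.10 to 0.26 for FIBP. With a pseudocount of 0.1, genes called at 2-fold numbered 1498 (in place of 848) for Si-FIBP#1, 1411 (757) for Si-FIBP#2, 1418 (721) for both together and 172 (84) between the siRNAs; the cause was not tested. The last count was 73 to 128 with each sample left out, the highest without Si-FIBP#2 replicate 2. Member transcripts past the threshold with Si-FIBP#2 numbered 7 in place of 13 with a filter of 5 FPKM, which tests fewer transcripts, and 7 to 13 with each sample left out, falling to 7 without Scramble replicate 1 and to 8 without Scramble replicate 2, Scramble replicate 3 or Si-FIBP#2 replicate 3. Samples that share a number showed no common deviation (correlations -0.06 to 0.10 over 9 pairs, 1 above 0.1). These correlations cannot show whether samples of the same number were handled together. With a replicate block, 853 and 760 genes were called at 2-fold for the siRNAs and 11 member transcripts for Si-FIBP#2. Depth limits the short and low transcripts most, several of which rest on fewer than 20 estimated fragments per sample.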

Other observations

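Of 10 reference genes often used to normalise expression assays, 6 fell and 0 rose after Si-FIBP#1 (also 0 at an unadjusted p under 0.05), and 5 fell and 1 rose after Si-FIBP#2 (limma, adjusted p under 0.05 over all genes). Over all genes tested, 19.9% were lower and 27.8% higher after Si-FIBP#1, and 17.7% lower and 31.1% higher after Si-FIBP#2. ACTB, the cytoskeletal actin gene, fell by 0.60 and 0.61 on the log2 scale, and B2M, the light chain of MHC class I, rose by 0.41 with Si-FIBP#2. The medians of the list were -0.35 and -0.10. Of the genes used to check the line, KRT8, KRT18 and VIM were all lower with both siRNAs, KRT18 by 1.19 and 1.45.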
